A study of Mus musculus with 2 samples.

Results

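The Toll-like receptor genes Tlr1, Tlr2, Tlr4, Tlr6, Tlr7, Tlr9 and Tlr13, the co-receptor genes Cd14 and Ly96 and the adaptor gene Myd88 were read from both deposited libraries by gene symbol. All 10 symbols were found among 24346 genes. They comprise 4 surface receptors, 3 endosomal receptors, 2 co-receptors and 1 adaptor. RNA came from Gr-1+ CD11b+ cells, a gate that holds neutrophils and monocytes, of BALB/c mice treated with 3% DSS (dextran sulfate sodium, which induces colitis) over 6 days. The control library was labelled as stimulated without ATPgS (n = 1) and the other as stimulated with ATPgS (n = 1), a slowly hydrolysed ATP analogue, for 2.5 hours. The labels carry 1 treatment text for both libraries, so no separate incubation time is given for the control, and the ATPgS concentration is printed as 100 with its unit prefix lost. The number of mice and any pooling are not stated in the labels. All cells of both groups therefore came from DSS-treated animals, and no library from untreated mice was analysed here.

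Toll-like receptors are membrane proteins that bind microbial molecules through an ectodomain of leucine-rich repeats and signal through a cytoplasmic TIR domain. TLR1, TLR2, TLR4 and TLR6 act mainly at the cell surface on lipoproteins and lipopolysaccharide, whereas TLR7, TLR9 and TLR13 sense nucleic acids in endosomes. The adaptor MyD88 links all of these receptors to IRAK kinases and NF-κB, and neutrophils and monocytes use them to detect bacteria. The comparison was made between the libraries and, within each, between surface and endosomal receptors.

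The values are FPKM, which scale the fragments of a gene by transcript length and library size, so levels of different genes can be compared per length. With 1 library per condition there is no replicate error and no p-value, and every difference describes these 2 libraries. The depth read from the steps of the low values was 2133000 fragments in the control and 2848000 in the ATPgS library. Intervals are 95% exact (Clopper-Pearson) intervals from the estimated reads of a gene and cover counting error only. As a measure of background, 1261 olfactory and vomeronasal receptor genes, which myeloid cells are not known to use widely, had a median of 1.98 FPKM in the control and 2.25 FPKM with ATPgS. Their 95th percentile lay at 16.2 and 15.8 FPKM. Itgam, the gene of CD11b, stood at 112 FPKM in the control and 144 FPKM with ATPgS. Of the genes of the Gr-1 antigens, Ly6c2 stood at 70.9 and 63.7 FPKM, and Ly6g was not among the gene symbols of these libraries.

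No member differed by 2-fold between the libraries. On the scale log2((ATPgS FPKM + 1) / (control FPKM + 1)), 0 of the 9 members with a mean of at least 1 FPKM were at least 2-fold higher with ATPgS, where 13.8% of 18311 genes were, and 0 were at least 2-fold lower, where 9.91% were. Tlr9 was the member under that minimum. Of the 10 members, 8 had a mean of at least 10 FPKM. Among the 6125 genes at that level, 263 were at least 2-fold higher with ATPgS and 452 at least 2-fold lower. Such folds were thus rarer there, and the count of 0 does not set the members apart from genes of like level. Tlr6 was the 1 member at least 1.5-fold higher (24.1% of all genes) and Tlr1 the 1 member at least 1.5-fold lower (20.7% of all genes). The added 1 FPKM draws low genes towards 0, so Tlr7, whose FPKM was 1.64-fold lower, had a log2 ratio of -0.57 and missed 1.5-fold on this scale. Over all 10 members the log2 ratio was above 0 in 4 and below 0 in 6, with a median of -0.09. The median over all genes was 0.01, and -0.13 over 6125 genes with a mean of at least 10 FPKM.

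**Figure D1:**
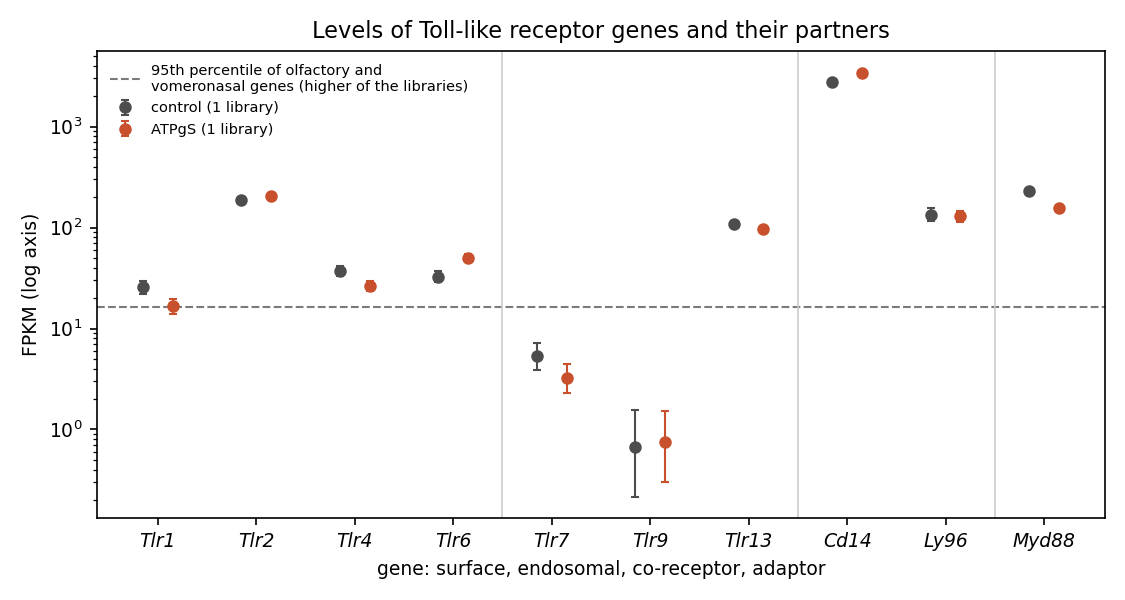
FPKM (log axis) of the 10 genes in the control library (grey) and the ATPgS library (orange); points are single libraries and bars are 95% counting intervals. Cd14 lies far above the others, and Tlr7 and Tlr9 lie below the dashed line at 16.2 FPKM, the 95th percentile of olfactory and vomeronasal genes.

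The levels of the 10 genes spread from 0.666 FPKM (Tlr9) to 2741 FPKM (Cd14) in the control, and their order was nearly the same in both libraries. In the control the order from the top was Cd14, Myd88, Tlr2, Ly96, Tlr13, Tlr4, Tlr6, Tlr1, Tlr7 and Tlr9. With ATPgS, Tlr2 stood above Myd88 and Tlr6 above Tlr4, and the other places were the same. The counting intervals of neighbouring levels overlapped for Tlr4 with Tlr6 and for Tlr6 with Tlr1 in the control, and for Myd88 with Ly96 in the ATPgS library. All other neighbours were apart by counting error, which leaves out the variation between animals.

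Among the surface receptors, Tlr2, whose protein pairs with TLR1 or TLR6 to bind bacterial lipoproteins, was the most abundant. Tlr2 (chromosome 3, 83836272 to 83841767, GRCm38) stood at 188 FPKM in the control and 204 FPKM with ATPgS, from about 1212 and 1749 reads. The levels were close, with a ratio of 1.08 and a counting interval of 1.004 to 1.16. Tlr4 (chromosome 4, 66827584 to 66930284), of the lipopolysaccharide receptor, stood at 37.4 and 26.6 FPKM. The ATPgS library was 1.41-fold lower for Tlr4, and the counting interval of the ATPgS to control ratio was 0.606 to 0.832.

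The partners of TLR2 differed in opposite directions. Tlr1 (chromosome 5, 64924679 to 64933563), whose protein forms with TLR2 a receptor for triacylated lipoproteins, stood at 25.7 FPKM in the control and 16.7 FPKM with ATPgS. That is 1.54-fold lower, with an interval of the ATPgS to control ratio of 0.516 to 0.817. The counting interval of the Tlr1 level with ATPgS, 14.1 to 19.7 FPKM, reached under the 95th percentile of the olfactory and vomeronasal genes (15.8 FPKM). Tlr6 (chromosome 5, 64952031 to 64960097), whose protein with TLR2 binds diacylated lipoproteins, stood at 32.7 and 50.2 FPKM. Tlr6 was thus 1.53-fold higher, with an interval of 1.32 to 1.78. Within a library the FPKM of Tlr6 was 1.28 times that of Tlr1 in the control and 3.005 times with ATPgS. This ratio does not depend on the scaling of the libraries, and by reads it was 2.35 times larger with ATPgS (interval 1.78 to 3.11). Against Tlr2 in the same way, Tlr1 was lower with ATPgS (0.601 times, interval 0.472 to 0.766) and Tlr6 higher (1.42 times, interval 1.195 to 1.68). These pairings were chosen after the values were seen.

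Tlr1 and Tlr6 are neighbours on the minus strand of chromosome 5 and share coding sequence, so some reads could come from either gene. Of the 50-base windows of the longest Tlr1 transcript, 15.3% occur exactly in Tlr6, and 12.5% of those of Tlr6 occur in Tlr1. How the authors assigned such reads is not recorded in the labels, so both levels are uncertain to that extent. The other receptor genes, Cd14 and Ly96 shared no such window with another gene. The longest identical stretch has 229 bases and is shown because it is where the 2 genes cannot be told apart. It lies in coding exon 4 of 4 of Tlr1 (chr5:64925537-64925765, GRCm38, minus strand) and coding exon 2 of 2 of Tlr6 (chr5:64953828-64954056, minus strand), in the GENCODE transcripts:
Tlr1 and Tlr6 shared stretch: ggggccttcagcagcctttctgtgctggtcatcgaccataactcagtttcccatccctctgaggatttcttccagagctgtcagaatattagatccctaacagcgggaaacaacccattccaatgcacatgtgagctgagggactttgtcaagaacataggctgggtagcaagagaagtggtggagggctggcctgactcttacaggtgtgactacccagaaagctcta

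Sequences before a RefSeq start site of Tlr1 and of Tlr6 are shown because the values of these neighbours went in opposite directions. Each run holds the 250 bases before a start site in RefSeq (GRCm38.p6), chr5:64933559-64933808 for Tlr1 and chr5:64959167-64959416 for Tlr6, both read 5′ to 3′ on the minus strand. Capitals mark matches, on either strand, to GAGGAA (the core bound by PU.1, a myeloid factor), GGGNNTTCC (a form bound by NF-κB), TTGCNNAA (C/EBP) and GAAANNGAA (from the interferon-stimulated response element, ISRE):
Tlr1: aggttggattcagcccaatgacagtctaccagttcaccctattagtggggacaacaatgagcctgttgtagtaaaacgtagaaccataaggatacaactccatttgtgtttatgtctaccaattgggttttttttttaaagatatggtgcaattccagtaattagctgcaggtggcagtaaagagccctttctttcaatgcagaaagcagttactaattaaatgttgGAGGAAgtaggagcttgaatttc
Tlr6: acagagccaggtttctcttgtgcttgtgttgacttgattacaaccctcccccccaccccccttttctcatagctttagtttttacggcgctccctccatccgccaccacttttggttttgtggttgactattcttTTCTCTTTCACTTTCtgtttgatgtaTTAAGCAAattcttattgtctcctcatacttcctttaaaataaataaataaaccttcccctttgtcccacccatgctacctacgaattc
The Tlr1 run held 1 match to GAGGAA, which 23.3% of 32851 promoters of this length hold. The Tlr6 run held 2 matches to GAAANNGAA that overlap each other, found in 7.13% of promoters, and 1 to TTGCNNAA, found in 9.56%. Neither held GGGNNTTCC, which 4.98% hold. The other RefSeq start site of each gene had no match to any of the 4. Bases taken from past the other Tlr6 start site occur in a GENCODE transcript of the gene, and those past both Tlr1 start sites and the printed Tlr6 site do not. A first exon that ends before those bases would also give no match, so this does not settle whether GENCODE holds a start site. The printed Tlr1 run reaches into the GENCODE span of Tlr1, which ends at 64933563. The printed Tlr6 run lies wholly within the GENCODE span of Tlr6 (64952031 to 64960097), so by that annotation it is not upstream of the gene. Promoters were matched for 6 of the 10 members, and matching letters describe the sequence only.

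Tlr13 was the main endosomal receptor transcript. Tlr13 (chromosome X, 106143204 to 106160493), whose protein senses bacterial ribosomal RNA and is found in mice and not in humans, stood at 107 FPKM in the control and 97.3 FPKM with ATPgS. The ATPgS level was 1.10-fold lower, with an interval of the ATPgS to control ratio of 0.830 to 0.989. Tlr13 made up 94.7% of the summed endosomal FPKM in the control and 96.0% with ATPgS.

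Tlr7 and Tlr9 were near the background level of these libraries. Tlr7 (chromosome X, 167304929 to 167330558), of the single-stranded RNA receptor, stood at 5.33 and 3.25 FPKM from about 44 and 36 reads. It was 1.64-fold lower with ATPgS (interval of the ATPgS to control ratio 0.383 to 0.974). Of the olfactory and vomeronasal genes, 73.3% lay below Tlr7 in the control and 58.3% in the ATPgS library. Tlr9 (chromosome 9, 106222598 to 106226883), of the receptor for unmethylated CpG DNA, stood at 0.666 and 0.748 FPKM, from about 5 and 7 reads. Its interval of 0.286 to 4.19 spans a difference in either direction, so none was detectable at this depth. Only 36.3% and 28.5% of the olfactory and vomeronasal genes lay below it.

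**Figure D2:**
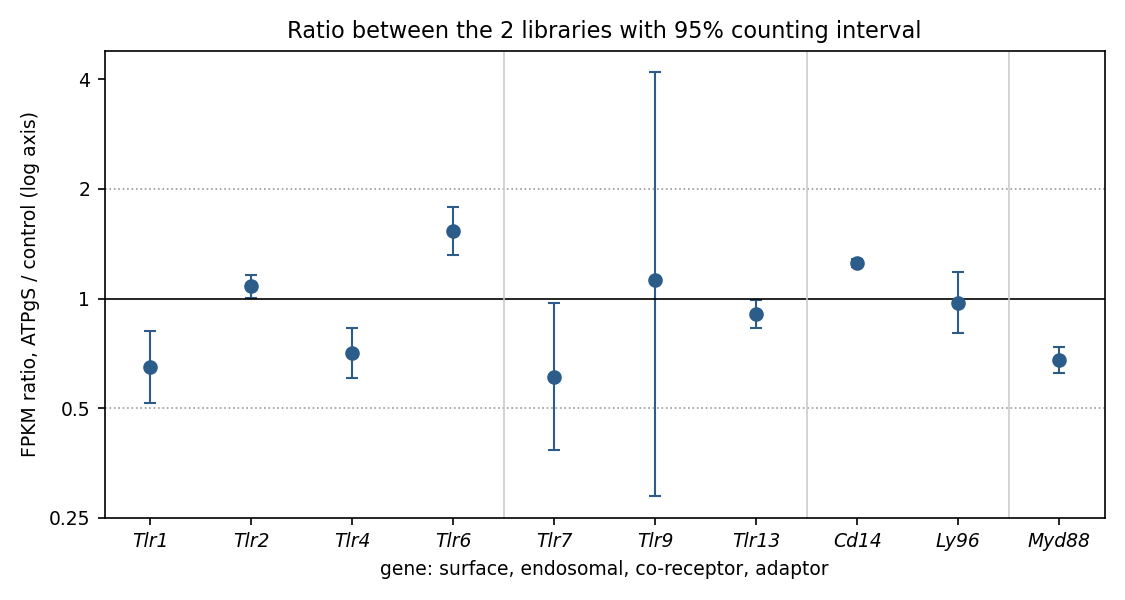
FPKM ratio of the ATPgS to the control library (log axis) for each gene; bars are 95% counting intervals, and dotted lines mark 2-fold. Tlr6 (1.53) and Tlr1 (0.65) lie on opposite sides of 1, and no point lies outside the dotted lines.

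As classes, the surface receptors held most of the receptor transcripts in both libraries, and the endosomal share was slightly lower with ATPgS. The 4 surface genes summed to 284 FPKM in the control and 297 FPKM with ATPgS, and the 3 endosomal genes to 113 and 101 FPKM. The endosomal share of the summed receptor FPKM was 28.5% in the control and 25.4% with ATPgS. By reads, the endosomal to surface ratio with ATPgS was 0.858 times that in the control, with a counting interval of 0.773 to 0.952. Without Tlr2 it was 0.914 times, and that interval (0.803 to 1.04) includes no difference. The log2 ratios of the surface genes ranged from -0.59 to 0.60 and those of the endosomal genes from -0.57 to 0.07, so the classes overlapped. Their medians were -0.18 for the surface genes and -0.36 for Tlr7 and Tlr13, but -0.14 once Tlr9 was included, so the order of the medians turned with 1 scarce gene. The sum over all 7 receptors was 398 FPKM in each library.

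**Figure D3:**
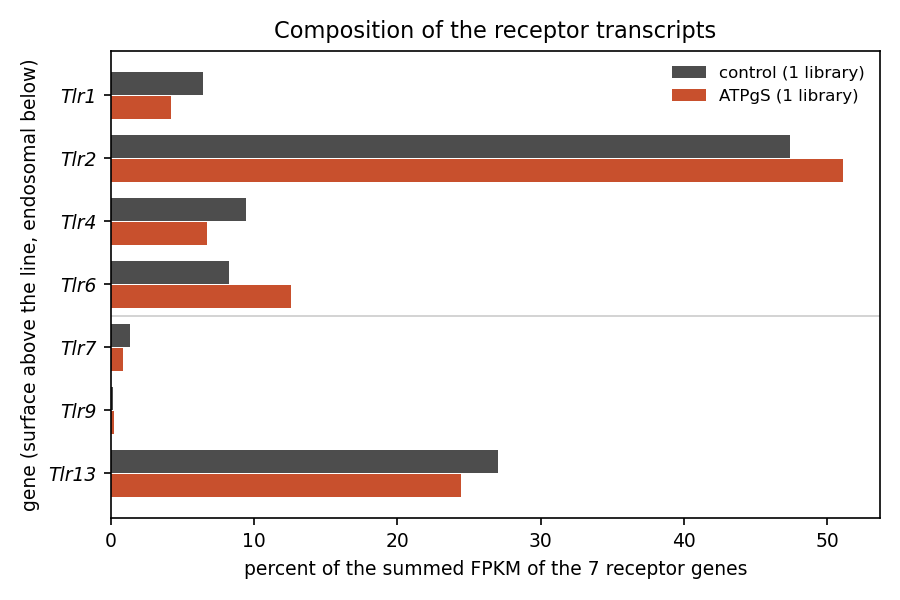
Percent of the summed FPKM of the 7 receptor genes (axis from 0) held by each gene in the control library (grey bars) and the ATPgS library (orange bars), 1 library each. Tlr2 and Tlr13 lead in both, with Tlr2 at 47.4% and 51.1% and Tlr13 at 27.0% and 24.4%.

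Of the co-receptor genes of the lipopolysaccharide pathway, Cd14 was higher with ATPgS and Ly96 was nearly level, whereas Tlr4 was lower. Cd14 (chromosome 18, 36725067 to 36726798), whose protein hands lipopolysaccharide to the TLR4 complex, stood at 2741 FPKM in the control and 3424 FPKM with ATPgS. It ranked 18th and 14th among all genes, and was 1.25-fold higher with ATPgS (interval 1.22 to 1.28). Ly96 (chromosome 1, 16688051 to 16709611), of MD-2, the subunit that binds lipopolysaccharide on TLR4, stood at 134 and 130 FPKM, a ratio of 0.972 with an interval of 0.803 to 1.18, and its direction turned under both rescalings of the libraries. Cd14 thus stood at 73.2 times the FPKM of Tlr4 in the control and 129 times with ATPgS, and Ly96 at 3.58 and 4.90 times. By reads, the Cd14 to Tlr4 ratio was 1.76 times larger with ATPgS (interval 1.498 to 2.07) and the Ly96 to Tlr4 ratio 1.37 times larger (interval 1.07 to 1.77). Both ratios were chosen after the values were seen. Their intervals used the longest transcripts. With the median length, Tlr4 had about 100 reads in the control and 95 with ATPgS, in place of 326 and 309. That would widen both intervals.

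Myd88 (chromosome 9, 119335934 to 119341411) stood at 231 FPKM in the control and 157 FPKM with ATPgS, from about 1209 and 1096 reads. It was 1.47-fold lower with ATPgS, with an interval of the ATPgS to control ratio of 0.625 to 0.737. Of its exon bases, 11.3% overlap exons of Acaa1a, which stood at 8.44 and 11.6 FPKM, and the kit does not mark strand.

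Counting error alone separated 8 of the 10 members from a ratio of 1, with 3 intervals wholly above it (Tlr2, Tlr6 and Cd14) and 5 wholly below it (Tlr1, Tlr4, Tlr7, Tlr13 and Myd88). The same held for 25.2% of 17566 genes above 1 and 25.4% below 1. Among genes with a mean of at least 10 FPKM, a minimum that 8 members passed, the shares were 22.2% and 38.1%. Intervals that leave out 1 were thus common over all genes and single out no member. With the median in place of the longest transcript length, the intervals of Tlr7 (0.310 to 1.197) and Tlr13 (0.803 to 1.02) included 1. The counts of intervals were not repeated under either rescaling of the libraries, and both rescalings raised the log2 ratios. With the longest length, the upper bounds of Tlr7 (0.974) and Tlr13 (0.989) lay close to 1.

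The rest of the pathway was described from 9 lists of 83 genes. Of the 81 with a mean of at least 1 FPKM, 4 were at least 2-fold higher with ATPgS (13.8% of all genes) and 3 at least 2-fold lower (9.91% of all genes). The shares over all genes include many scarce genes. Of 6125 genes with a mean of at least 10 FPKM, 263 passed 2-fold upwards and 452 downwards. Their median log2 ratio was 0.04, against 0.01 over all genes. Among the other Toll-like receptor genes, 1 of 5 passed 2-fold on the scale with 1 FPKM added. This was Tlr5, of the flagellin receptor, at 0.121 FPKM in the control and 3.36 FPKM with ATPgS, from about 1 and 36 reads, a ratio of 27.7 with an interval of 4.54 to 1094. Both values lie under the 95th percentile of the olfactory and vomeronasal genes, as do those of every other gene of this list. Tlr8, the highest of this list by the mean of both libraries and lower than Tlr5 with ATPgS, stood at 3.56 and 2.02 FPKM. Tlr3, of the endosomal receptor for double-stranded RNA, stood at 1.94 and 0.724 FPKM from about 18 and 9 reads. Its FPKM ratio without the added 1 was 2.67-fold lower with ATPgS (interval of the ATPgS to control ratio 0.148 to 0.878), and its log2 ratio with it was -0.77.

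Of 9 genes of receptor chaperones and trafficking, 0 passed 2-fold. Hsp90b1, of the chaperone gp96 that folds these receptors, led by the mean of both libraries at 91.8 and 84.4 FPKM. Unc93b1, whose protein escorts the nucleic acid receptors to endosomes, stood at 40.02 and 56.7 FPKM, and Slc15a3, of an endolysosomal peptide transporter, at 65.02 and 103 FPKM, above Hsp90b1 in the ATPgS library. These 2 genes, named after their values were seen, were higher with ATPgS (ratios of 1.42, interval 1.19 to 1.70, and 1.59, interval 1.45 to 1.75). The whole list had 3 log2 ratios above 0 and 6 below, with a median of -0.12. Besides the 2 intervals above 1, it had 3 wholly below 1 (Pdia4, Tmed7 and Ap3b1). Of 6 measured co-receptor and ligand transfer genes, 0 passed 2-fold, and the integrin subunit gene Itgb2 was the most abundant (247 and 212 FPKM).

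Among 4 measured genes of other adaptors, Ticam2 was the 1 at least 2-fold lower. Its protein TRAM bridges TLR4 to the adaptor TRIF, and it stood at 9.73 FPKM in the control and 4.35 FPKM with ATPgS (interval of the ATPgS to control ratio 0.311 to 0.638). Ticam1, of TRIF itself and named after its values were seen, went the other way at 4.43 and 7.25 FPKM (interval 1.05 to 2.69). Pik3ap1, of the adaptor BCAP, was the most abundant at 209 and 293 FPKM. Of 17 kinase and ubiquitin ligase genes, 1 was at least 2-fold higher, Tab3, of a subunit that activates the kinase TAK1 (2.06 and 5.37 FPKM). Irak2, of a kinase recruited by MyD88, led this list at 139 and 209 FPKM. Of 8 negative regulators, 1 was at least 2-fold lower, Sigirr, of a receptor that dampens TIR signalling (12.2 and 2.44 FPKM, interval of the ratio 0.103 to 0.369). Tnfaip3, of the ubiquitin-editing enzyme A20, led that list at 279 and 349 FPKM. None of 6 transcription factor genes passed 2-fold, with Irf7 the highest by the mean of both libraries at 144 and 114 FPKM, although Rela was above it with ATPgS (107 and 135 FPKM).

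Genes that Toll-like receptors are known to switch on were described in 2 lists. Of 18 NF-κB-linked targets, 16 had a log2 ratio above 0 and 2 below, with a median of 0.22, and over all genes 49.6% lay below 0, or 59.95% at a mean of at least 10 FPKM. Ccl4, a chemokine gene, was the 1 target that passed 2-fold (1818 and 3818 FPKM). Il1b, of the cytokine interleukin 1 beta, was the most abundant by the mean, at 3218 FPKM in the control and 3429 FPKM with ATPgS, where Ccl4 stood above it. Of 8 TRIF-linked and interferon targets, 3 lay above 0 and 5 below, with a median of -0.18. Ifnb1, of interferon beta, was the 1 at least 2-fold higher and stood at 8.46 and 18.03 FPKM from about 14 and 39 reads (interval 1.11 to 4.16). Cxcl10, of an interferon-induced chemokine, passed 2-fold downwards (168 FPKM in the control and 82.8 FPKM with ATPgS), and the chemokine gene Ccl5 was the most abundant at 258 and 342 FPKM. Whether the 2 lists differ was not tested.

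**Figure D4:**
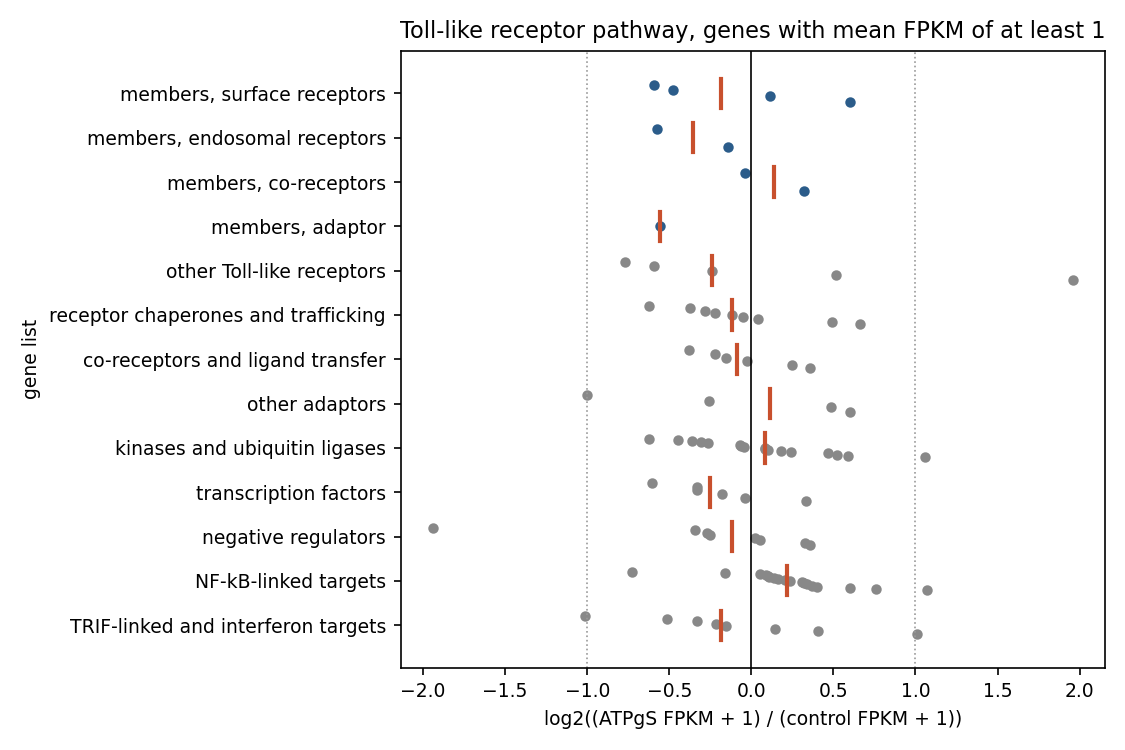
Log2 ratio, log2((ATPgS FPKM + 1) / (control FPKM + 1)), of each gene with a mean of at least 1 FPKM, by list; blue points are the receptors, co-receptors and adaptor, grey points the other pathway genes, orange lines list medians and dotted lines 2-fold. The medians run from -0.56 for Myd88 alone to 0.22 for NF-κB-linked targets, and most points lie within 2-fold.

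Markers of other cells that use these receptors also differed between the libraries. The 8 T and NK cell markers summed to 249.9 FPKM in the control and 81.7 FPKM with ATPgS, with 6 at least 2-fold lower and 1 higher. The 8 B cell markers summed to 349 and 267 FPKM. Of the 7 B cell markers with a mean of at least 1 FPKM, 2 had a log2 ratio above 0 and 5 below (median -0.63). Among them, 1 was at least 2-fold higher with ATPgS, Cd22 (1.73 and 6.00 FPKM), and 1 at least 2-fold lower, Blk (11.5 and 5.03 FPKM). The 6 plasmacytoid dendritic cell markers summed to 127 and 87.1 FPKM, although Siglech was higher (6.79 and 14.02 FPKM). Of the 5 plasmacytoid markers with a mean of at least 1 FPKM, 1 had a log2 ratio above 0 and 4 below (median -0.60). Among the latter list, Cox6a2 was listed at 0 with ATPgS and no other marker of any list was at 0. The 10 macrophage and dendritic cell markers summed to 3269 and 3624 FPKM, most of it Cd74 (2647 and 2825 FPKM). Of these, 9 had a log2 ratio above 0, with a median of 0.42. Past 2-fold upwards with ATPgS were Flt3 (0.946 and 3.78 FPKM) and C1qc (12.5 and 34.2 FPKM), and downwards Clec9a (4.82 and 0.198 FPKM). The 7 monocyte markers summed to 328 and 304 FPKM, with 1 log2 ratio above 0 and 6 below (median -0.18). The 7 neutrophil markers summed to 37227 and 40153 FPKM, most of it S100a8 (20604 and 22410 FPKM). Of these 7, 4 had a log2 ratio above 0 and 3 below (median 0.12). B cells and plasmacytoid dendritic cells are known users of Tlr7 and Tlr9, and lymphocytes also carry Tlr1 and Myd88. In RNA from sorted cells, fewer cells of a type and less RNA per cell cannot be told apart, and the part of these markers in the values of Tlr1, Tlr7 and Myd88 was not tested.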

How the data were processed

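RNA of Gr-1+ CD11b+ cells was sequenced in 2 libraries, 1 per condition. Per the labels' protocols, full-length cDNA came from a SMART-Seq HT kit and the sequencing library from a Nextera kit, a combination that does not mark strand. The submitters' processing notes name Cufflinks 2.2.1, TopHat2 2.0.13, Bowtie2 2.2.3 and SAMtools 0.1.19, and the build mm10. The authors deposited 1 FPKM value per gene symbol. Neither the annotation nor the options are given in the sources used here.

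Members and gene lists were chosen with earlier results of these data known. All 10 members are named, as are, of each other pathway list, the genes at least 2-fold apart and the most abundant one by the mean of both libraries. Marker lists are given by sums and counts, and only some of their genes are named. Fragments per library were read from FPKM times coding length (including the stop codon) in single-exon olfactory and vomeronasal genes. Below 10 reads, 71.4% of these values (control) and 71.5% (ATPgS) came out whole within 0.05 reads. The depth was picked, in steps of 1000 fragments, to make this share largest. By chance the share would be 10% at a single fixed depth, and higher for the best of many depths. Reads per gene used the longest GENCODE M21 transcript (GRCm38, the same build as mm10), and 95.7% of symbols had one. Estimated in this way, reads summed to 133% and 131% of the fragments, so reads are overestimated for some genes and intervals may be too narrow. PCR duplicates cannot be recognised in these values.

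The alternatives changed the pseudocount from 1 to 0.1 or 5, gave both libraries 1 sum of FPKM, or centred the log2 ratios on genes averaging at least 10 FPKM. They also used other minimum levels, a 1.5-fold threshold, the median transcript length and other members of the receptor classes. The log2 ratios, the 2-fold calls and the intervals of the ratio between libraries were tested on simulated reads with counting error only. That simulation took transcript lengths as exact. The depth estimate, the intervals of levels and of ratios within a library, and the sequence searches were not simulated. Calculations used scipy 1.17.1 under Python 3.11.15.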

Additional observations from a re-analysis of the deposited data

How the results depend on the processing

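The count of members at least 2-fold apart was 0 in each direction with every pseudocount, scaling and minimum level tried, and 1 in each direction at a 1.5-fold threshold. Over the whole table, 2521 genes passed 2-fold upwards with ATPgS and 1815 downwards. With a pseudocount of 5 these were 561 and 461, at a mean of at least 10 FPKM 263 and 452 (of 6125 genes), and at 1.5-fold 4408 and 3782. Rescaling shifted log2 ratios at a mean of at least 10 FPKM by a median of 0.05 (same sum) and 0.13 (median set to 0). Of 40 log2 ratios of members under another pseudocount or scaling, 2 changed sign, both of Ly96 (0.01 with the same sum and 0.08 with the median set to 0). Another 4 moved beyond their counting interval without changing sign, Cd14 from 0.32 to 0.38 with the same sum, and Cd14 to 0.45, Tlr2 from 0.11 to 0.24 and Myd88 from -0.56 to -0.43 with the median set to 0. The log2 ratio of Tlr1 stayed between -0.62 and -0.47 and that of Tlr6 between 0.55 and 0.73. That of Tlr13 reached -0.02. The endosomal minus surface difference of medians was -0.18, and 0.04 without a minimum level or at a mean of at least 10 FPKM. With the median transcript length, 3 intervals lay below 1 in place of 5. Depth limits Tlr9 most, and no replicate shows how far libraries of 1 condition differ.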
